A study of Arabidopsis thaliana with 10 samples.

Results

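The genes described here are those whose transcript level was lower at each step down the wild-type Arabidopsis thaliana inflorescence stem, from segment I to segment II and again from segment II to segment III. They were selected on the measured values of the 3 wild-type libraries. A gene was kept if it reached 1 FPKM (fragments per kilobase and per mapped total, a unit that corrects for gene length and depth) in at least 1 of the 4 RNA libraries, and if its log2(FPKM + 1) was lower by at least 1, that is at least 2-fold, at both steps. This gave 92 genes of 18858 measured and 23615 listed. Over all measured genes, 16.1% were lower by at least 2-fold at the first step, 2.35% at the second and 0.488% at both. Because the same values chose the genes, their wild-type differences are given as a description.

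Stems 20 cm tall of the wild type (accession Col) and of an atx1 mutant were grown in long days and cut by distance from the tip. Segment I was the top 3 cm, segment II lay at 5 to 7 cm and segment III at 10 to 12 cm. The 3 wild-type segments (WT I, WT II, WT III) and the mutant's segment II each gave 1 RNA-seq library, so no difference below has an error or a test. The atx1 allele and the number of plants per library are not given in the sources used here, and the 6 samples of the H3K4me3 chromatin experiment are outside the scope of these results.

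ATX1 (AT2G31650), which encodes a histone H3 lysine 4 methyltransferase and names the mutant, was at 4.02, 6.09 and 3.54 FPKM in WT I, II and III and at 21.76 in the mutant library. Its level was thus higher, not lower, in the mutant library. With the allele not given, a level per gene cannot show whether the label is right. The mutant library is therefore called the library labelled atx1 II, and every direction drawn from it rests on that label. Depth was similar: 1 FPKM on a 1 kb transcript stood for an estimated 18.9 to 19.7 fragments in each library, from the steps between low values. The cell types were checked with marker lists. Secondary wall markers of fibres and xylem (CESA4, CESA7, CESA8, SND1 and NST1) summed to 99.86 FPKM in the top wild-type segment, 1452.66 in the middle one, 1791.63 in the lowest, and 453.07 in the library labelled atx1 II. The sum of 9 floral organ markers was 12.35 FPKM in WT I and 7.74 to 8.51 in the other libraries, with AP3, PI and AG listed at 0 in WT II and WT III. The wider floral list holds SEP4, its most abundant gene (39.9, 50.41, 41.53 and 65.08 FPKM in WT I, II, III and the library labelled atx1 II), and its 7 measured genes summed to 64.49, 62.7, 53.09 and 75.99.

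The inflorescence stem matures from its tip downwards. Cells near the tip divide and elongate under thin, extensible primary walls, the epidermis lays down its cuticle, and the green cortex builds its chloroplasts. Further down elongation stops, and fibres and xylem deposit secondary walls. Proline-rich, arabinogalactan and germin-like proteins belong to the wall and the space outside the cell, expansins and xyloglucan endotransglucosylases loosen or rejoin primary wall polymers, and lipid transfer proteins and wax enzymes serve the cuticle.

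Of the 92 genes, 53 have a gene name in the files or the reference annotation. They were sorted by known role, after their values were seen, into plastid proteins (17 genes), wall and growth (12), germin-like proteins and water channels (4), lipids (6), and stress, hormone and other functions (14). The remaining 39 carry only a locus identifier and are given by that identifier, with no role. In WT I the 92 genes ran from 4.32 to 2394.7 FPKM with a median of 80.955. Of them 44 reached 100 FPKM, as did 1279 of all 18858 measured genes. The median was 10.265 FPKM in WT II and 2.155 in WT III. Their levels summed to 2.93% of the whole FPKM sum in WT I, 0.606% in WT II and 0.22% in WT III. In WT III 33 of the 92 were under 1 FPKM, and EXPA8, ESM1 and SAUR13 were listed at 0. Of all 18858 measured genes 1576 were under 1 FPKM in WT III, 199 of these at 0. In bulk tissue, fewer cells of a type and less RNA per cell cannot be told apart.

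**Figure D1:**
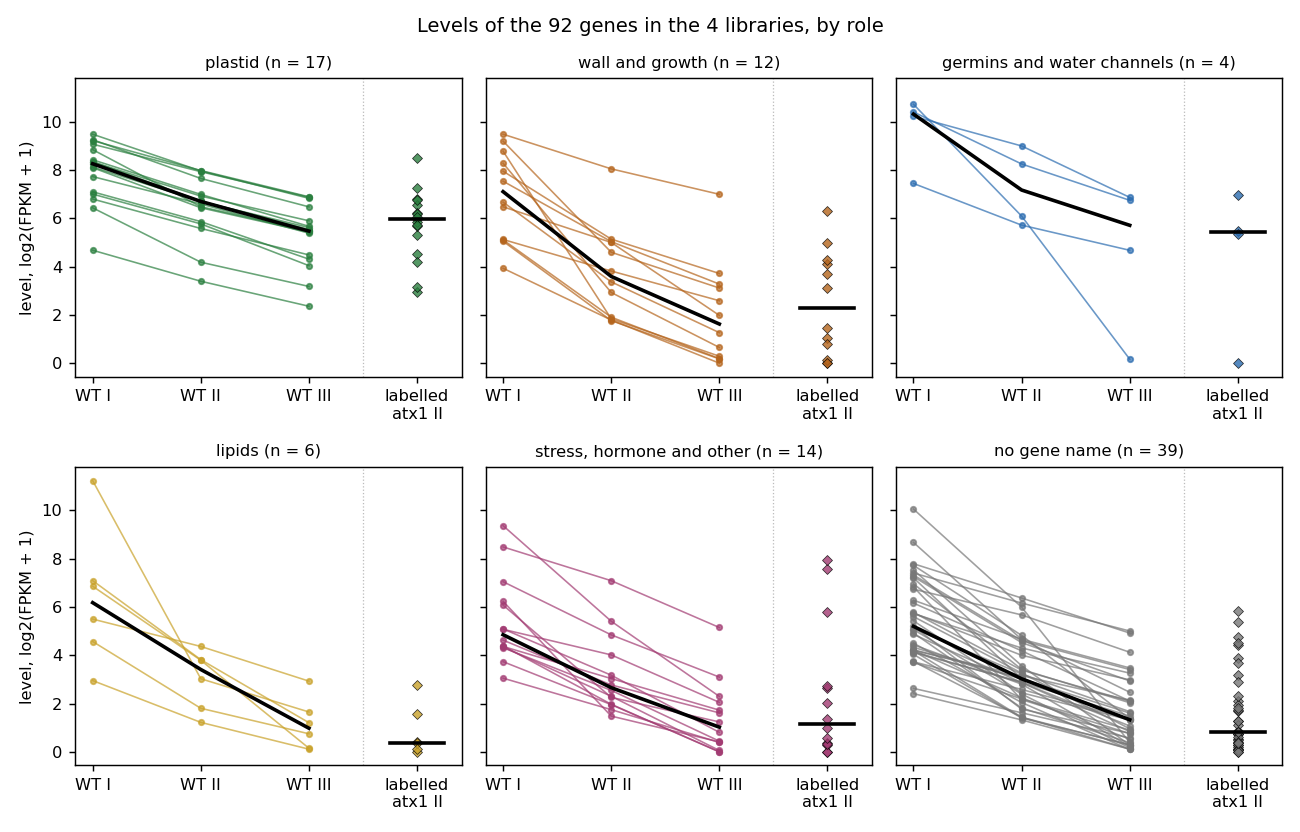
Level of each of the 92 genes as log2(FPKM + 1), by role; circles joined by lines are WT I, WT II and WT III, diamonds are the library labelled atx1 II, and black bars and lines are medians over the genes of a panel. The plastid genes run nearly parallel and end at 4.12 FPKM or more in WT III, while 5 of 12 wall and growth genes and 3 of 6 lipid genes end under 1 FPKM.

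The first step was the larger one in 63 of the 92 genes and the second in 29. Over all 18858 measured genes the first difference was the lower one in 11855 and the second in 6983. The median difference of the 92 was -1.90 on the log2 scale from WT I to WT II and -1.42 from WT II to WT III. With libraries scaled by the median of ratios these medians were -1.73 and -1.59. The lipid transfer protein gene LP1 and the proline-rich protein gene PRP2 lost nearly all of their level at the first step, by -8.20 and -6.94. The germin-like gene GER3 and AT2G10940 had the largest second steps, -5.93 and -5.60. At the threshold, PCB2 (-1.00239 at its smaller step) and AT5G03120 (-1.00424) were just inside, followed by CHLI1, AT1G54820 and AT2G21860. AT4G38860 (-0.998325), the arabinogalactan gene AGP41 (-0.996762), AT4G11175, AT1G78260 and HEME1 were just outside. Scaling the libraries by the median of ratios shifts the median of all genes by 0.15 at the first step and -0.18 at the second, where the 444 genes lower and 538 higher over all measured genes become 744 and 310. At the first step it leaves 2497 lower and 2315 higher, from 3031 and 1863.

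**Figure D2:**
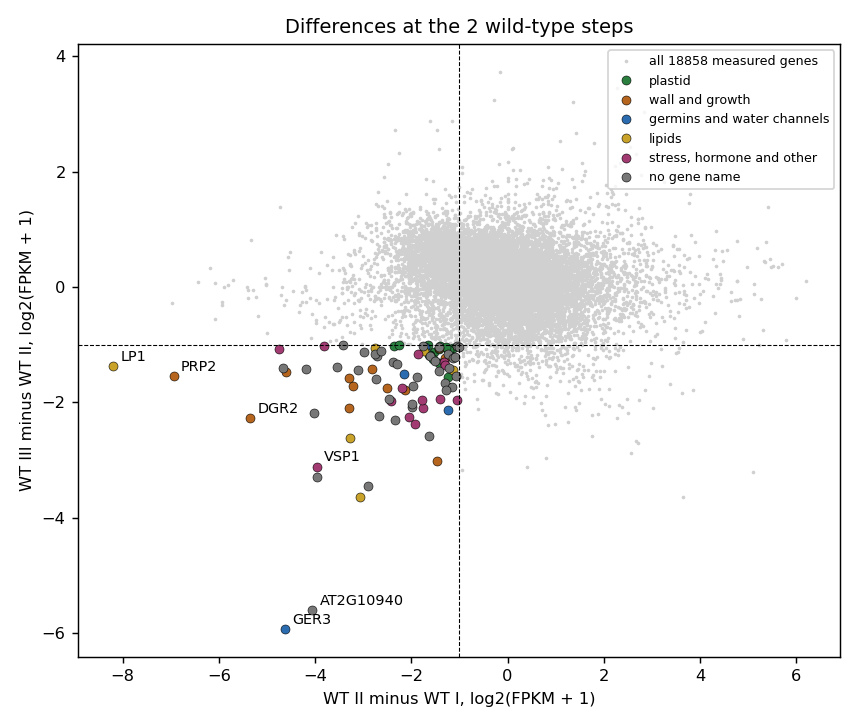
Difference in log2(FPKM + 1) at the first step (x axis, WT II minus WT I) and the second (y axis, WT III minus WT II) for all 18858 measured genes in grey and the 92 genes coloured by role; dashed lines mark -1. The 92 genes fill the lower left corner by construction, with LP1 and PRP2 far to the left and GER3 and AT2G10940 at the bottom.

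Among the wall and growth genes, 7 encode proteins that sit in the wall or link it to the membrane. PRP4, a proline-rich wall protein, was at 583.48 FPKM in segment I of the wild type, 23.11 in segment II, 7.64 in segment III, against 16.09 in the library labelled atx1 II. PRP2, of the same kind, was at 437.45, 2.57 and 0.22 FPKM and listed at 0 in the library labelled atx1 II. Both were thus far more abundant in segment I than in any other library. DGR2, of a plant family of wall-associated proteins, was at 309.07, 6.6, 0.57 and 0.11 FPKM in the same order, and its relative DGR1 was at 3.68, 0.07, 0 and 0. The fasciclin-like arabinogalactan protein gene FLA9 was at 245.79, 34.13, 12.11 and 18.4 FPKM. The glycine-rich protein gene GRP23 was at 184.19, 31.71, 8.67 and 7.58. These genes kept a clear level in segment II, as did CWLP, a proline-rich linker of wall and plasma membrane, which was at 87.83, 30.95 and 2.94 FPKM in the wild type and at 30.65 in the library labelled atx1 II. The arabinogalactan protein gene AGP17 likewise stood near its WT II level there, at 33.76, 13.07, 5 and 11.81 FPKM.

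Enzymes and regulators of cell expansion made up the rest of this set. XTH4, a xyloglucan endotransglucosylase/hydrolase, was the most abundant, at 712.26 FPKM in the top wild-type segment, 262.95 in the middle one, 126.15 in the lowest, and 77.43 in the library labelled atx1 II. XTH19, of the same family, was at 32.07, 2.39, 0.13 and 0.71. XTH4 therefore remained a well expressed gene in segment III, whereas XTH19 did not. The expansin gene EXPA8 was at 14.22 and 2.45 FPKM in WT I and WT II and listed at 0 in the other libraries. LNG2 (LONGIFOLIA2), which promotes polar cell elongation, was at 100.65, 9.31, 1.4 and 1.73 FPKM, and its relative LNG1 was at 26.74, 3.08, 2.43 and 0.94 and missed the second step. MIOX2, which opens the ring of myo-inositol on a route to wall sugars, was at 33.44, 2.74, 0.14 and 1.04.

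Relatives of these genes were counted at each step, and the counts include the 92 genes themselves. Over all measured genes 16.1% were lower at the first step, 2.35% at the second and 0.488% at both. Of 14 measured alpha-expansins 8 were lower at the first step and 1, EXPA8, at the second (2 when libraries were scaled by the median of ratios). Of 23 measured XTH genes 6 were lower at the first step and 4 at the second, with XTH4 and XTH19 in both counts. XTH18, a close relative of XTH19 that can share reads with it, was at 67.22, 35.74, 9.81 and 1.8 FPKM and missed the first step. Of 62 measured proline-rich, extensin and arabinogalactan protein genes found by name, 19 were lower at the first step, 9 at the second and 4 (PRP2, PRP4, FLA9 and AGP17) at both. The name search does not find CWLP, which was also lower at both. Among SAUR genes 11 of 46 were lower at the first step and 6 at the second, among lipid transfer protein genes 3 and 1 of 10, and among cytochrome P450 genes 10 and 7 of 115.

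The germin-like genes and water channels were the most abundant set in segment I, with a median of 1270.78 FPKM. GER3, a germin-like protein of the space outside the cell, was at 1682.09, 67.05 and 0.12 FPKM in wild-type segments I to III and listed at 0 in the library labelled atx1 II. GER1, of the same family, was at 1192.49, 508.28 and 115.37 FPKM in the wild type and at 43.34 in that library. The germin-like gene GER2 (AT5G39190) went the other way, at 1.44 FPKM in segment I of the wild type, 68.82 in segment II, 59.27 in segment III, against 7.18 in the library labelled atx1 II. DELTA-TIP, an aquaporin of the vacuolar membrane, was at 1349.06, 302.62, 106.04 and 122.86 FPKM, and PIP2E, an aquaporin of the plasma membrane, at 172.6, 51.5, 24.5 and 39.81. Neither water channel came near 0 in any library.

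Lipid genes included the member with the highest level. LP1, also named LTP1, encodes a small secreted lipid transfer protein known from the epidermis and was at 2394.7 FPKM in the top wild-type segment, 7.15 in the middle one, 2.14 in the lowest, and 0.31 in the library labelled atx1 II. CER4, the reductase that makes the primary alcohols of stem wax, was at 135.02, 13.09 and 1.31 FPKM and listed at 0 in that library. These 2 surface genes were near or at their lowest there. BAS, beta-amyrin synthase of triterpene synthesis, was at 114.86, 12.85, 0.11 and 0.29 FPKM, and LUP5, of the same enzyme family, at 22.72, 2.49, 0.68 and 1.96. FAD8, a plastid fatty acid desaturase, was at 44.15, 19.59, 6.61 and 5.78. CYP96A9, a cytochrome P450, was low throughout, at 6.73, 1.33, 0.08 and 0.08.

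The epidermis and cuticle lists moved with these genes mostly at the first step. For comparison, 16.1% of all measured genes were lower at the first step and 2.35% at the second. Of 12 epidermis identity genes 7 were lower at the first step and 1, LP1, at the second. Without LP1 the other 11 summed to 182.42 FPKM in segment I of the wild type, 77 in segment II, 74.91 in segment III, against 91.93 in the library labelled atx1 II. PDF1, a marker of the outermost cell layer, had the largest first step of these, at 42.94 and 0.04 FPKM in WT I and WT II and listed at 0 in the other 2. By contrast, 5 of the 12 (HDG1, HDG2, FDH, ACR4 and ANL2) lay within 2-fold at the first step. ANL2 was higher there, at 8.21, 11.48, 9.09 and 23.74 FPKM in WT I, II, III and the library labelled atx1 II. The part of the epidermal share of the tissue in the levels of LP1 and CER4 was not tested. Of 19 measured wax genes 11 were lower at the first step and 3 at the second. CER4 alone was lower at both, while the alkane genes CER1 (577.89, 355.28, 124.27 and 5.64 FPKM) and MAH1 (416.34, 237.84, 97.14 and 8.91) passed the second step only. Of 11 measured cutin genes 9 were lower at the first step and 0 at the second, such as DCR, an acyltransferase of cutin synthesis, at 59.67, 0.87, 0.92 and 0.5 FPKM.

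**Figure D3:**
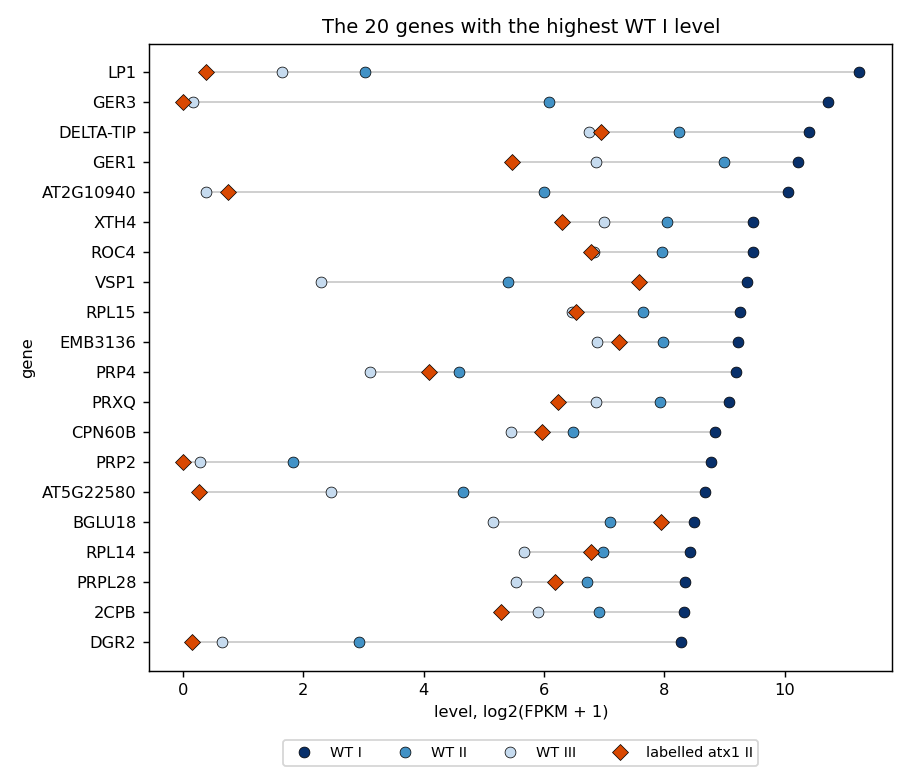
Level as log2(FPKM + 1) of the 20 genes with the highest WT I level; circles are WT I, WT II and WT III from dark to light, diamonds the library labelled atx1 II, and grey lines span the 4 values. LP1, GER3, AT2G10940 and PRP2 start at 437.45 FPKM or more in WT I and end at 2.14 or less in WT III, while XTH4, ROC4 and EMB3136 stay above 100 there.

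The 17 plastid genes had the smallest and most even steps, with medians of -1.43 and -1.09. At the first step they ran from -2.36 to -1.13 and at the second from -1.73 to just past the threshold. Several encode the plastid ribosome. RPL15 was at 608.92 FPKM in the top wild-type segment, 199.46 in the middle one, 87.73 in the lowest, and 91.66 in the library labelled atx1 II. EMB3136 was at 592.72, 250.5, 117.33 and 151.35 FPKM. PRPL28 was at 323.45, 103.68, 45.22 and 71.8, and PSRP3/1 at 304.42, 103.61, 43.24 and 50.5. GHS1 was at 277.6, 102.55, 47.96 and 56.35. RPL14 (ATCG00780), which the chloroplast genome encodes, was at 341.38, 125.77, 49.74 and 108.43. In each of these 6 genes the library labelled atx1 II lay between WT III and WT II.

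Other plastid genes act in folding, redox control and pigment synthesis. CPN60B, a subunit of the plastid chaperonin, was at 456.84 FPKM in segment I of the wild type, 88.05 in segment II, 42.89 in segment III, against 61.5 in the library labelled atx1 II; its partner subunit gene CPN60A was at 404.8, 64.7, 66.9 and 43.76. ROC4, a stromal cyclophilin that helps proteins fold, was at 712.05, 247.64, 112.34 and 108.98. CPN60A thus shared the first step of CPN60B and not the second. The peroxiredoxin genes PRXQ (535.1, 242.33, 115.7 and 74.19 FPKM) and 2CPB (AT5G06290; 320.37, 119.85, 58.48 and 38.03), which remove peroxides in the plastid, were lower in the library labelled atx1 II than in any wild-type segment. CHLI1, a subunit of the magnesium chelatase of chlorophyll synthesis, was at 272.03, 85.41, 41.95 and 64.57, and its paralog CHLI2 at 42.44, 13.33, 7.13 and 7.45. PCB2, a reductase of the same pathway, was at 85.23, 17.11, 8.04 and 6.79, and LIL3:1, a light-harvesting-like protein tied to chlorophyll synthesis, at 109.99, 46.72, 21.34 and 17.24. The last set of plastid genes belongs to the thylakoid: the lumen protein gene TL29 was at 210.39, 95.42, 40.66 and 52.43 FPKM, and the photosystem II assembly gene PSB28 at 135.62, 57.11, 18.78 and 22.12. CCB3, of cytochrome b6f assembly, was at 24.53, 9.49, 4.12 and 7.99.

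The antenna gene CAB3 (LHCB1.2) was the exception among them in the library labelled atx1 II, at 126.95, 53.43 and 15.41 FPKM down the wild-type stem against 360.1 in that library. It has near-identical copies whose reads can be shared, so its level is uncertain. CAB1 was at 5765.85, 6455.59, 2510.98 and 6463.79 FPKM and CAB2 at 92.44, 24.95, 12.95 and 815.07. The library labelled atx1 II was therefore the highest of the 4 for all 3 copies, although for CAB1 it was nearly level with WT II.

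Most photosynthesis genes were not lower at both steps. Nuclear genes of the antennae, photosystems and Rubisco small subunit were matched by symbol or synonym. The match also takes in genes outside these complexes, such as PSAT1 and PnsL1. Of the 64 measured, 5 were lower at the first step, 28 at the second and 2 (CAB3 and PSB28) at both, with medians of 0.01 and -0.94. Over all measured genes 16.1% were lower at the first step, 2.35% at the second and 0.488% at both. Of 17 nuclear plastid ribosomal protein genes found by their annotation, a list chosen after its values were seen, 15 were lower at the first step and 3 (RPL15, PRPL28 and PSRP3/1) at the second, with medians of -1.43 and -0.74. When libraries were scaled by the median of ratios, the second-step counts were 47 of 64 and 8 of 17. The annotation search does not find EMB3136 and GHS1; with them, 17 of 19 were lower at the first step and 5 at the second (10 when scaled). Of 61 measured chloroplast-encoded genes 15 were lower at the first step, 10 at the second and 1, RPL14, at both.

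**Figure D4:**
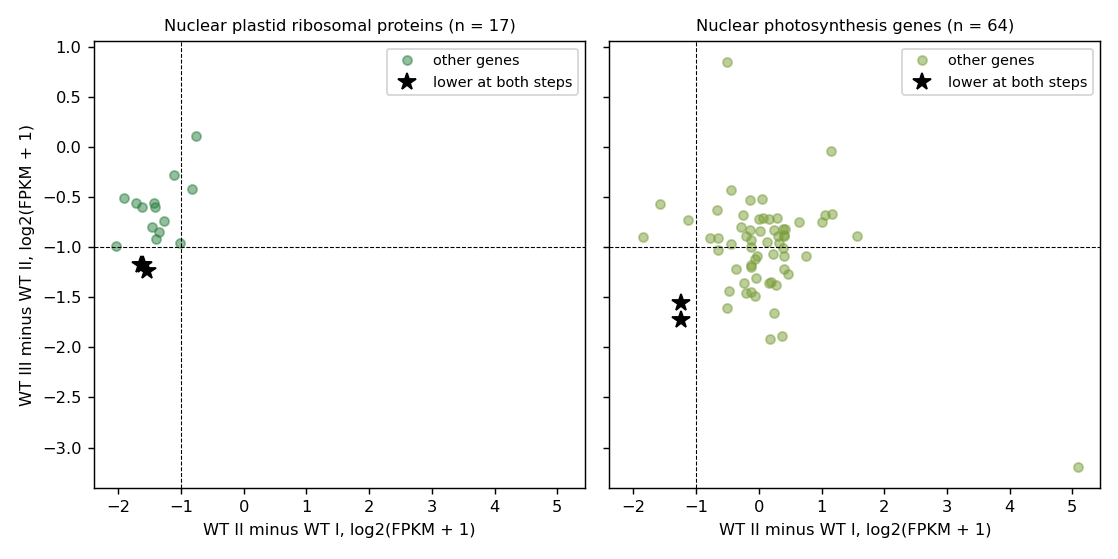
Difference in log2(FPKM + 1) from WT I to WT II (x axis) and from WT II to WT III (y axis). Shown are 17 nuclear plastid ribosomal protein genes (left) and 64 nuclear genes matched by photosynthesis symbols or synonyms (right). Stars are genes lower by at least 2-fold at both steps, and dashed lines mark -1. The ribosomal genes gather left of the vertical line (median -1.43), and the photosynthesis genes gather around 0 on the x axis and near -1 on the y axis.

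The set of stress, hormone and other genes was the most mixed. VSP1, a jasmonate-inducible vegetative storage protein, was at 658.13 FPKM in the top wild-type segment, 41.45 in the middle one, 3.91 in the lowest, and 189.78 in the library labelled atx1 II. BGLU18, a beta-glucosidase that releases abscisic acid from its glucose ester, was at 357.04, 134.93, 34.48 and 245.09. P5CS1, which catalyses the committed step of proline synthesis, was at 130.99, 27.71, 7.55 and 53.74. In these genes, in the cold-regulated COR15B (66.42, 3.78, 1.36 and 5.23 FPKM) and in the haemoglobin gene HB2 (7.28, 2.36, 0.31 and 5.56), the library labelled atx1 II lay between WT II and WT I. Close relatives differed in part: VSP2, whose reads VSP1 can share, was at 238.11, 276.03, 101.31 and 372.35, COR15A at 24.97, 0.98, 0.3 and 1.54, and P5CS2 at 21.95, 29.33, 23.45 and 95.1.

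Other genes of this set were low in the library labelled atx1 II. ACS11, an enzyme of ethylene synthesis, was at 32.68, 15.16 and 3.14 FPKM down the wild-type stem and at 0.98 in that library. RCI2B, a small cold-inducible membrane protein, was at 19.59, 7.19 and 2.31 and listed at 0 there, whereas its paralog RCI2A was at 290.03, 459.91, 523.25 and 257.66. GLC was at 33.08, 8.02 and 0.75 FPKM and also listed at 0 there. The transcription factor gene BZIP61 was at 74.28, 1.79, 0.33 and 0.2, and NAKR3 at 23.68, 5.82, 2.06 and 1.54. These 5 genes were lower there than in any wild-type segment. The amino acid exporter gene UMAMIT14 was at 19.26, 3.93, 0.04 and 0.25 FPKM, and the auxin-responsive SAUR13 at 12.3, 2.88, 0 and 0.48. UGT74E2, a glycosyltransferase of indole-3-butyric acid, was at 18.86, 4.84, 0.36 and 3.08. ESM1, which shapes glucosinolate breakdown, was at 19.91, 2.92, 0 and 0.3.

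The 39 genes with no name ran from 4.32 to 1060.11 FPKM in WT I. AT2G10940 was at 1060.11 FPKM in segment I of the wild type, 62.6 in segment II, 0.31 in segment III, against 0.67 in the library labelled atx1 II. AT5G22580 was at 406.34, 24.23, 4.53 and 0.2 FPKM, and AT1G44830 at 209.94, 27.27, 1.59 and 0.81. These 3 genes dropped over a wide range and were at or below 1 FPKM in the library labelled atx1 II. AT5G15780 was at 184.23, 10.86, 0.21 and 0.46 FPKM, close to the same shape. AT4G16980 (220.02, 81.67, 29.24 and 40.6) and AT1G62780 (168.13, 70.54, 31.05 and 55.13) dropped in small, even steps like the plastid genes. Of the 39, 17 were under 1 FPKM in WT III, as were 21 in the library labelled atx1 II, against 1576 and 1447 of all 18858 measured genes.

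The other lists had no gene among the 92. At the first step 12 of 12 cell cycle genes, 6 of 8 flavonoid genes, 4 of 11 stomatal lineage genes and 2 of 7 floral organ genes were lower, against 16.1% of all measured genes, and 0 of each at the second. The second-step share was 2.35% over all measured genes, so nothing is read from counts of 0 in lists this short. Secondary wall genes were higher at the first step for 14 of 15, against 9.88% of all measured genes, and lower at the second for 0. Phloem genes were lower for 0 of 8 at the first step and for 2, SWEET11 and SWEET12, at the second. Suberin (5 measured) and trichome (2 measured) genes were lower for 0 at either step, and 0 tapetum genes reached 1 FPKM in any library. No 2 of the 92 genes lay within 5 listed genes of each other along a chromosome.

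The levels in the library labelled atx1 II were then compared with the wild type. Against WT II, 58 of the 92 genes were lower by at least 2-fold, 31 lay within 2-fold and 3 were higher, with a median of -1.34. Over all measured genes 8.32% were lower and 14.1% higher, with a median of 0.28. The selection required WT II to stand at least 2-fold above WT III, and WT II enters this comparison as well, so nothing is read from the difference between 58 of 92 and the share over all genes. Against WT III, which the selection used too, 10 of the 92 were lower, 67 lay within 2-fold and 15 were higher (9.03% lower and 9.61% higher over all measured genes), with a median of 0.20. Against WT I, 87 were lower, 4 lay within 2-fold and 1, CAB3, was higher. Of all 18858 measured genes 3311 were lower and 3736 higher than in WT I. The selection also required WT I to stand at least 2-fold above WT II, so nothing is read from the 87 either.

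Placed among the wild-type levels, the library labelled atx1 II lay below WT III for 38 of the 92 genes, between WT III and WT II for 44, between WT II and WT I for 9 and above WT I for 1. These are 41.3%, 47.8%, 9.78% and 1.09%. Of the 2238 other genes lower by at least 2-fold from WT I to WT III, the shares were 39.5%, 17.5%, 39.1% and 3.98%. In those genes WT II need not lie between WT I and WT III. The selection set the gap between WT III and WT II in the 92, so nothing is read from the differences in share. A level equal to WT III is counted with the 44, which hold 3 such ties: EXPA8 (both listed at 0), CYP96A9 and AT4G24275. With ties counted in this way, 11 of 17 plastid genes and 8 of 12 wall and growth genes, EXPA8 among them, lay between WT III and WT II. Of the 14 stress, hormone and other genes 5 lay between WT II and WT I, 4 between WT III and WT II and 5 below WT III.

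**Figure D5:**
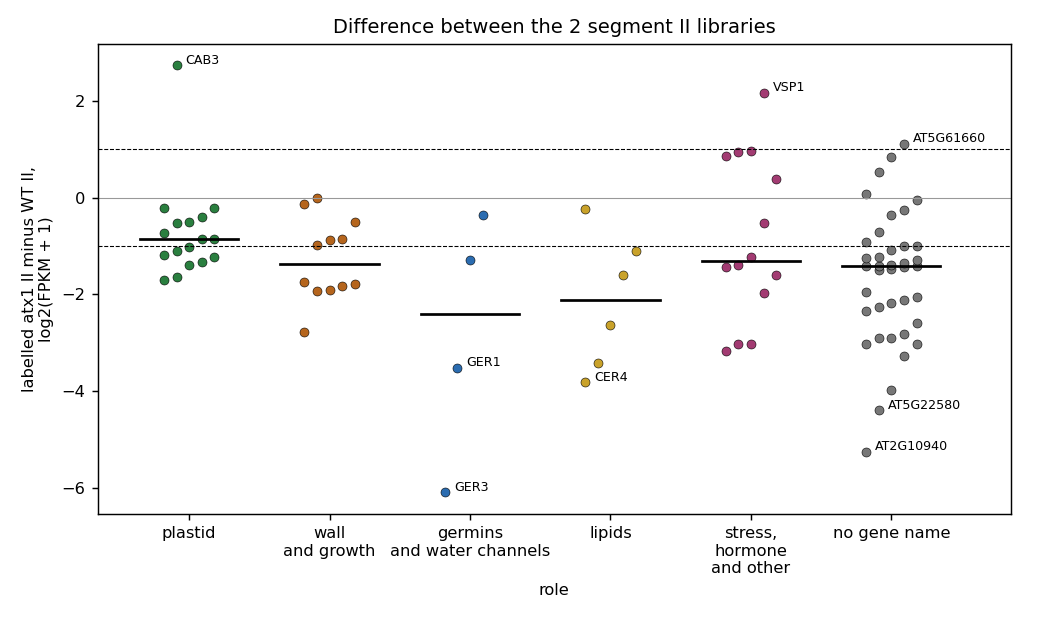
Difference in log2(FPKM + 1) between the library labelled atx1 II and WT II for each of the 92 genes by role; black bars are medians and dashed lines mark 2-fold in each direction. The medians run from -0.85 for plastid genes to -2.41 for germin-like proteins and water channels, and CAB3, VSP1 and AT5G61660 lie above the upper line.

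The 5 genes furthest below WT II, among those at 5 FPKM or more in either library, were GER3 (-6.09 on the log2 scale), AT2G10940 (-5.25), AT5G22580 (-4.39), AT1G44830 (-3.97) and CER4 (-3.82). This ranking depends on WT II, whose gap above WT III was set by the selection. Against WT III the same 5 genes differed by -0.16, 0.35, -2.20, -0.52 and -1.21 in that order. The 5 furthest above WT II were CAB3 (2.73), VSP1 (2.17), AT5G61660 (1.10), HB2 (0.97) and P5CS1 (0.93), of which the last 2 lay within 2-fold. AT5G61660 was at 53.65 FPKM in the top wild-type segment, 9.46 in the middle one, 3.27 in the lowest, and 21.43 in the library labelled atx1 II. Scaling by the median of ratios, which shifts the median of all genes by -0.24 in this comparison, gave 67 of the 92 lower and 2 higher. Over all measured genes it turned 1569 lower and 2665 higher into 2237 lower and 1704 higher. In the library labelled atx1 II the median of the 92 genes was 2.395 FPKM and 37 of them were under 1 FPKM, 8 of these listed at 0. Of all 18858 measured genes 1447 were under 1 FPKM there, 186 of these at 0.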

How the data were processed

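RNA-seq was analysed for 4 libraries, 1 per group. The values are FPKM, given by the authors per gene to 2 decimals, per the file headers. Trimmomatic, HISAT, Bowtie2, RSEM and the build TAIR10 are named without versions or roles, per the submitters' processing notes. Neither the selection of messenger RNA nor the treatment of reads shared by paralogs is stated in these sources.

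The files were joined on gene identifier. Differences are of log2(FPKM + 1), which understates those of low genes, in genes with at least 1 FPKM in a library. Of 23615 identifiers, 23238 matched the names of TAIR10.1. Depth was fitted from low values of genes of 250 to 900 bp, of which 68.7% to 70.2% lay within 0.15 of a whole fragment (30% if spread evenly, but the step was fitted to the same values). Scripts (Python 3.11.15, pandas 2.3.3) were checked on made-up tables.

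The 92 genes, the 12 lists and the families were chosen with earlier results of these data known. Genes described in full were the 20 highest in WT I, the 10 with the largest summed drop, the 5 largest differences each way between the library labelled atx1 II and WT II, and the 5 on each side of the threshold; others and close relatives were added after values were seen. List genes whose name the files did not bear out (5) were left out, and so were promoter sequences.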

Additional observations from a re-analysis of the deposited data

How the results depend on the processing

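With 1 library per group, no replicate could be left out. No paired analysis was possible because the labels give no replicate numbers. Dropping the filter on low values, or raising it to 5 FPKM, kept 92 and 91 genes. Pseudocounts of 0.5 and 0.1 gave 130 and 227, which held all 92. Steps of 1.5 and 0.8 gave 31 and 176. Scaling by the median of ratios gave 121, of which 83 were among the 92. The 9 lost were PRXQ, TL29, FAD8, ACS11 and 5 genes with no name. In the library labelled atx1 II against WT II, 144 genes were lower and 17 higher at pseudocount 0.1, and 88 were lower at 0.5. The shares over all measured genes were not computed at these pseudocounts, so nothing is read from these counts. At steps of 1.5, 26 were lower and 1 higher, and at 0.8, 7 were higher. The step does not enter the shares over all measured genes, which stayed at 8.32% lower and 14.1% higher. Against WT III, 10 were lower and 15 higher, and the median turned from -1.34 to 0.20. Its place above WT I, between WT II and WT I, between WT III and WT II and below WT III held 7, 37, 102 and 81 genes at pseudocount 0.1, 0, 2, 17 and 12 at steps of 1.5, and 5, 26, 87 and 58 at steps of 0.8. At pseudocount 0.5, 15 genes lay between WT II and WT I, and with scaling 2 lay above WT I. Of the 66 genes with at least 5 FPKM in WT II, chosen after seeing the data, 29 lay between WT III and WT II. Each setting with a count for the library labelled atx1 II here takes another number of genes than 92, except WT III. The selection put WT II at least 2-fold above WT III in every one of the 92. Taking WT III in place of WT II therefore had to raise each difference by at least 1 on the log2 scale. Levels equal to WT III are counted as between WT III and WT II. Of the 53 named genes, 4 passed 2-fold newly when scaled, 1 (HB2) at pseudocount 0.1 and 2 (MIOX2 and XTH19) under both, and 0 changed sign past 2-fold. Promoter motifs were not run. At this depth 1 FPKM on 1 kb stands for about 19 fragments, so levels under 0.1 FPKM rest on few fragments.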
